A study of Sinotaia aeruginosa with 24 samples.

Results

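The measurements below concern 2 of the 233875 gene clusters assembled from RNA of the freshwater snail Sinotaia aeruginosa, also called Bellamya aeruginosa. They are Cluster-2499.89586, whose best Swiss-Prot match is SCO-spondin, and Cluster-2499.87352, whose best Swiss-Prot match is Hemocytin. Both were selected on measured values of these samples, namely a high level in control livers and a near absence in exposed livers. Those differences are therefore given as a description with no test. Snails had been given algae carrying cadmium, polystyrene microplastic or both, and RNA was sequenced on day 42 from tissue labelled liver and tissue labelled brain. Each tissue had 4 groups, 1 without handling as control, 1 with cadmium, 1 with polystyrene and 1 with both together (combined), and each of the 8 groups had 3 samples. The exposures carry the label of a medium concentration with no amount, no strain or age is given, and every group shared the algal diet as far as the design text says. Whether replicate samples stem from different snails is not stated in the labels. The p-values below therefore measure only the spread between these samples, which may be technical.

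SCO-spondin of vertebrates is a giant secreted glycoprotein of the brain's subcommissural organ that assembles into Reissner's fibre in the cerebrospinal fluid. Its chain is built of repeats found in von Willebrand factor, thrombospondin and the LDL receptor. Hemocytin of the silkworm, called hemolectin in Drosophila, is a lectin related to von Willebrand factor that blood cells release and that takes part in clotting. Gel-forming mucins, the main proteins of mucus, are secreted chains that carry von Willebrand domains too, so that database searches with such chains can return any of these names. The tissue labelled liver in a snail is the digestive gland, which secretes enzymes into the gut and stores nutrients.

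The annotation in the deposited table names the SCO-spondin cluster in more than 1 way. Its sequence is 8478 bases long, and its best match in the NR protein database was a partial mucin-5AC-like protein of the apple snail Pomacea canaliculata, with an alignment score of 5362. The Swiss-Prot match that gives it the name, SCO-spondin of the chicken, scored 1876. Its Pfam domains were a pacifastin inhibitor, a family of small inhibitors of serine proteases first known from crayfish, and a von Willebrand factor type C domain. The shared name SCO-spondin is used below for what the table calls it, while the closer match was to a snail mucin-like protein. The Hemocytin cluster is 2974 bases long and matched a hemocytin-like protein of Pomacea canaliculata with a score of 2058, against 294 for Hemocytin of the silkworm Bombyx mori. Its listed domains were von Willebrand factor type C, LDL receptor class A, multicopper oxidase and auxin response factor, the last a plant family. Each name gives a family at best, and clusters that resemble each other may share reads.

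Samples held 13712265 to 17145998 expected counts, and 44524 to 57637 clusters reached 10 counts. No libraries held identical values. Of clusters named as digestive enzymes, 270 in all, the summed level was 49370 to 69330 CPM (counts-per-million units) in the 12 livers and 5347 to 10770 CPM in the 12 brains. The 71 clusters named for nervous tissue summed to 1196 to 1519 CPM in livers, and 25 to 27 of them reached 1 CPM in a liver group. In brain groups 52 to 54 reached 1 CPM. Choline O-acetyltransferase, the enzyme that makes acetylcholine, was at 0 in every exposed liver group, and the vesicular acetylcholine transporter in 3 of the 4 liver groups. The label brain thus went with a wider set of nervous markers, while the summed level of those markers overlapped between the tissues. Muscle markers, 48 clusters, summed to 785.2 to 1331 CPM in livers and to far more in brains. They stood at 8731 to 19030 CPM in control brains, 12180 to 19110 with cadmium, 9114 to 16840 with polystyrene and 21610 to 38830 in the combined exposure. The samples labelled brain thus held muscle RNA too, more of it in the combined exposure than in controls. Its part in the brain differences below was not tested.

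SCO-spondin was abundant in the 3 control livers and all but absent from the 9 exposed ones. The control livers held 5432, 10256 and 1965 counts, or 475.5, 872.1 and 187.7 CPM. The mean was 511.8 ± 343.6 CPM (SD, n = 3). Control liver 2 was the highest and control liver 3 the lowest, 4.65-fold apart, and without control liver 2 the mean was 331.6 CPM. The 3 cadmium livers held 0, 0 and 1 count. The 3 polystyrene livers held none. The 3 livers of the combined exposure held 3, 0 and 1 counts. The 9 exposed livers together thus held 5 counts of this cluster, against 17653 in the 3 control livers, and 6 of the 9 held none.

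On the scale of CPM the mean in control livers was 17140 times that in cadmium livers, with a 95% interval from counting alone of 3264 to 718100. Against the combined exposure the ratio was 4603 (1740 to 16350). In polystyrene livers, where no count was found, SCO-spondin was at least 6680-fold lower, taking 3 counts in the whole group as the floor. These intervals and floors cover counting error only, and reads without molecular identifiers are not independent molecules. Every control liver lay above every exposed liver, and the lowest control stood 756.2-fold above the highest exposed sample. Without control liver 2 the ratios were 11110 for cadmium and 2983 for the combined exposure. In bulk tissue, fewer cells that make an RNA and less of the RNA per cell cannot be told apart. The share of all tested liver clusters called in either direction was 3.46% for cadmium, 3.14% for polystyrene and 6.24% for the combined exposure, and nothing is read from these shares about the members, which were chosen on the same contrast.

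Hemocytin too was high in the control livers and low in every exposed liver, but unlike SCO-spondin it kept a few counts in every exposed liver. The control livers held 3886, 6461 and 1428 counts, or 340.1, 549.4 and 136.4 CPM, with a mean of 342.0 ± 206.5 CPM (SD, n = 3). Control liver 2 was again the highest and control liver 3 the lowest, and without control liver 2 the mean was 238.3 CPM. Cadmium livers held 7, 11 and 3 counts, a mean of 0.579 ± 0.304 CPM. Polystyrene livers held 11, 15 and 8 counts, a mean of 0.877 ± 0.294 CPM. Livers of the combined exposure held 15, 10 and 25 counts, a mean of 1.43 ± 0.633 CPM (SD, n = 3 each). The group mean was lowest with cadmium and highest in the combined exposure, and the samples of neighbouring groups in this order overlapped.

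The mean level of Hemocytin in control livers was 590.3 times that in cadmium livers (95% counting interval 378.4 to 934.7). The ratio was 389.9 (281.9 to 568.7) for polystyrene and 239.7 (180.7 to 320.8) for the combined exposure. Put as shares, exposed livers kept 0.169%, 0.257% and 0.417% of the control level. The lowest control liver stood 63.97-fold above the highest exposed liver, so that the groups did not overlap. Without control liver 2 the 3 ratios were 411.3, 271.7 and 166.9.

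**Figure D1:**
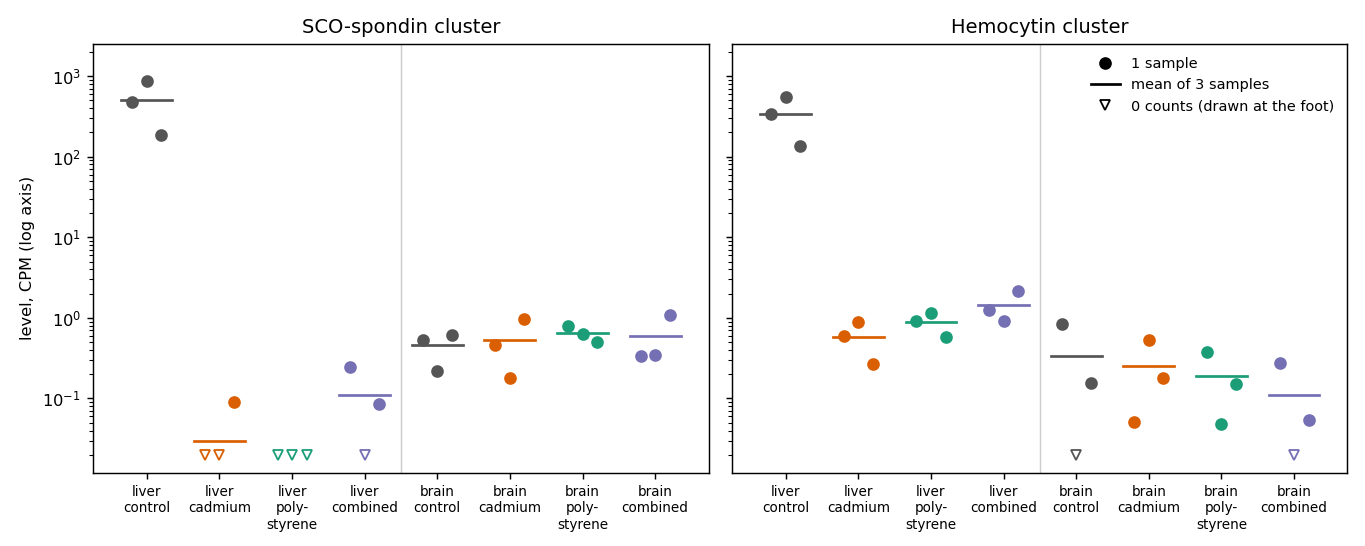
Level of the SCO-spondin and Hemocytin clusters in CPM (log axis) in each of the 24 samples by group; points are samples, lines are means of 3 samples, and open triangles at the foot are samples with 0 counts. The 3 control livers sit between 187.7 and 872.1 CPM for SCO-spondin and between 136.4 and 549.4 CPM for Hemocytin, and the other 21 samples lie at or below 2.13 CPM.

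Within the control livers both clusters varied together. Per kilobase of cluster length, which allows levels of different genes to be compared, Hemocytin stood at 114.4, 184.7 and 45.9 CPM per kilobase and SCO-spondin at 56.1, 102.9 and 22.1. Hemocytin was therefore 2.04, 1.80 and 2.07 times as abundant per length in the 3 samples. The ratio between them stayed within this narrow range while each level moved more than 4-fold. By level per kilobase SCO-spondin ranked 1376th, 815th and 3247th among the 109679 to 113145 clusters with a count in those libraries, and Hemocytin 768th, 493rd and 1670th. Over all 24 samples Pearson's r of log2(CPM + 0.5) between them was 0.94, and over the 12 livers 0.99, both of which rest on the 3 control livers standing apart from the rest and carry no test.

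The differences between the exposed groups are given without a test as well, because the low level in exposed livers was part of how the members were chosen. For Hemocytin the 3 livers of the combined exposure (0.908 to 2.13 CPM) lay above the 3 cadmium livers (0.269 to 0.877 CPM) with no overlap, and they overlapped with the polystyrene livers (0.571 to 1.16 CPM). For SCO-spondin the exposed groups held 1, 0 and 4 counts in all, too few for a difference between exposures to be detectable at this depth. Both clusters entered the liver fit through the counts of the control livers. Of all liver clusters, 2.5% were called between the combined exposure and cadmium and 1.32% between the combined exposure and polystyrene, from which nothing is read about the members.

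In brain both clusters were near the limit of detection in every group. SCO-spondin had 3 to 21 counts in each of the 12 brains, 0.178 to 1.08 CPM with a median of 0.515 CPM. Its group means were 0.454 ± 0.207 CPM in control brains, 0.530 ± 0.393 CPM in cadmium brains, 0.642 ± 0.150 CPM in polystyrene brains and 0.587 ± 0.426 CPM in brains of the combined exposure (SD, n = 3 each). All 4 groups overlapped. Brains thus held more counts of SCO-spondin than exposed livers did, 130 over 12 samples against 5 over 9. Hemocytin had 0 to 16 counts in a brain, 2 of the 12 had none, and its group means fell between 0.111 and 0.332 CPM. For Hemocytin the order was the opposite, since the mean over the 9 exposed livers was 0.961 CPM and over the 12 brains 0.222 CPM. In controls the liver level was 1127 times the brain level for SCO-spondin (95% counting interval 760.7 to 1707) and 1031 times for Hemocytin (652.7 to 1693), again a description.

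No exposure changed SCO-spondin in brain beyond the spread between samples. With 64047 brain clusters in the fit, the log2 difference from control by edgeR was 0.23 ± 0.69 for cadmium (adjusted p = 0.903), 0.47 ± 0.69 for polystyrene (adjusted p = 0.747) and 0.33 ± 0.69 for the combined exposure (adjusted p = 0.865). The approximate 95% intervals reached from -1.12 to 1.58, from -0.88 to 1.82 and from -1.02 to 1.68, so a change of up to about 1.82 on the log2 scale stays within them. The combined exposure differed from cadmium by 0.10 ± 0.68 (adjusted p = 0.975) and from polystyrene by -0.14 ± 0.68 (adjusted p = 0.953). Leaving out cadmium brain 6 turned the cadmium difference to -0.50 and leaving out combined brain 6 turned the combined one to -0.41. Hemocytin did not pass the filter on low counts in brain. In the fit without a filter its log2 difference from control was -0.39 ± 1.09, -0.79 ± 1.10 and -1.57 ± 1.17 (adjusted p by edgeR of 0.982, 0.797 and 0.574). Over all brain clusters 4.34%, 7.08% and 3.92% were called for the 3 exposures, 2.79% between the combined exposure and cadmium and 3.51% between the combined exposure and polystyrene.

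**Figure D2:**
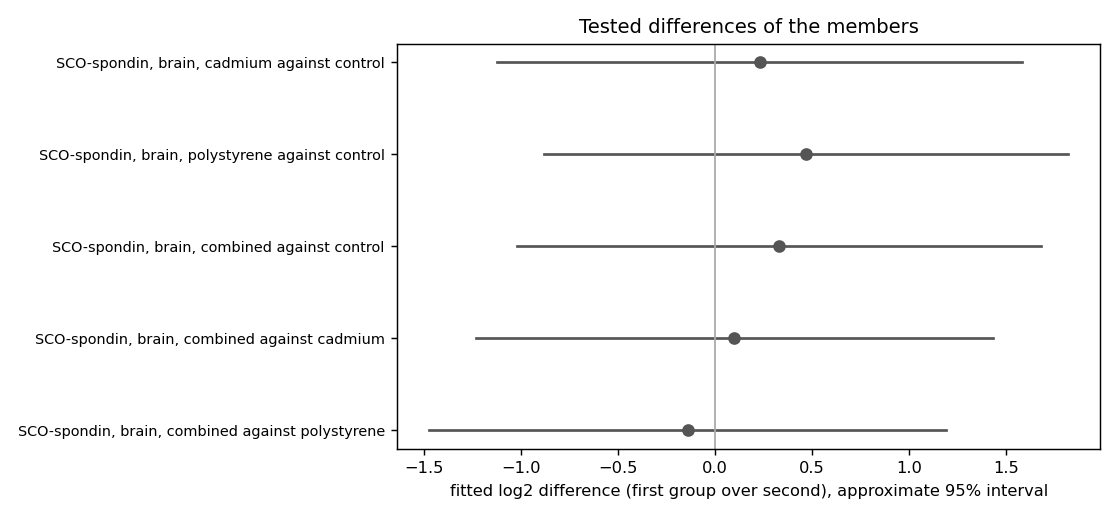
Fitted log2 differences of the SCO-spondin cluster in the 5 brain comparisons that were tested, with approximate 95% intervals; positive values mean a higher level in the group named first. Every interval includes 0, and together they span -1.47 to 1.82.

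Named clusters whose levels ran most like the members' over the 24 samples included several mucins. The 8 named clusters with the highest Pearson r of log2(CPM + 0.5) to each member over all samples, and the 4 highest over the 12 livers, came to 13 clusters beside the members, of which 4 are called mucin by Swiss-Prot or NR. They were chosen by this pattern among 78808 clusters and are described with no test. Mucin-5AC (Cluster-2499.87847) ran closest to Hemocytin, with an r of 0.99 over 24 samples. In control livers it held 249.9, 474.3 and 103.1 CPM, and its highest exposed liver had 2.39 CPM. Mucin-2 (Cluster-2499.85095), which the NR database calls mucin-5AC-like, held 155.2, 304.7 and 70.8 CPM in control livers and at most 2.05 CPM in an exposed one. Both showed the order of the members, with control liver 2 highest and control liver 3 lowest.

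Another mucin, mucin-2-like (Cluster-2499.99323), held 50.5, 152.5 and 33.8 CPM in control livers. In 7 of the 9 exposed livers it had no count, while polystyrene liver 3 held 11. The other Mucin-5AC cluster (Cluster-2499.91349) had a mean of 8.57 ± 6.59 CPM in control livers (SD, n = 3). Clusters with the discoidin domains of lactadherin, a secreted protein that binds phosphatidylserine on cell surfaces, were close to Hemocytin. They were EGF-like repeat and discoidin I-like domain-containing protein 3 (Cluster-2499.88108; r of 0.98, 111.8 ± 79.0 CPM) and Lactadherin (Cluster-2499.70796; r of 0.98, 36.3 ± 28.0 CPM). Beta-mannosidase (Cluster-2499.83386), a lysosomal enzyme that removes mannose from sugar chains, had 56.3 ± 41.1 CPM in control livers and at most 1.52 CPM in an exposed one.

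Nearest to SCO-spondin was stabilin-2-like (Cluster-2499.85296), named after a scavenger receptor for hyaluronan, with an r of 0.98. It held 16.2, 90.1 and 25.3 CPM in control livers and no count in any exposed liver. Transmembrane protease serine 11D (Cluster-2499.74132), a serine protease, had 20.5 ± 7.98 CPM in control livers and at most 0.987 CPM in exposed ones. The remaining 4 named clusters, a phospholipase A and acyltransferase, a retrovirus-related Pol polyprotein, a leucine-rich repeat protein and a DBH-like monooxygenase, had means of 2.35 to 11.3 CPM in control livers. The order of control liver 2 above 1 above 3 was seen in 9 of the 13, and 3 of the clusters stood among the 8 nearest of both members. Most clusters of like pattern carry no informative name, that is none at all or one such as hypothetical or uncharacterized protein. Of 55 clusters with r of 0.95 or more to SCO-spondin, 50 had no informative name, and of 54 for Hemocytin, 42. The likeness depends on the scale, since by Spearman's rho none of the 8 stayed among the 8 nearest for either member.

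**Figure D3:**
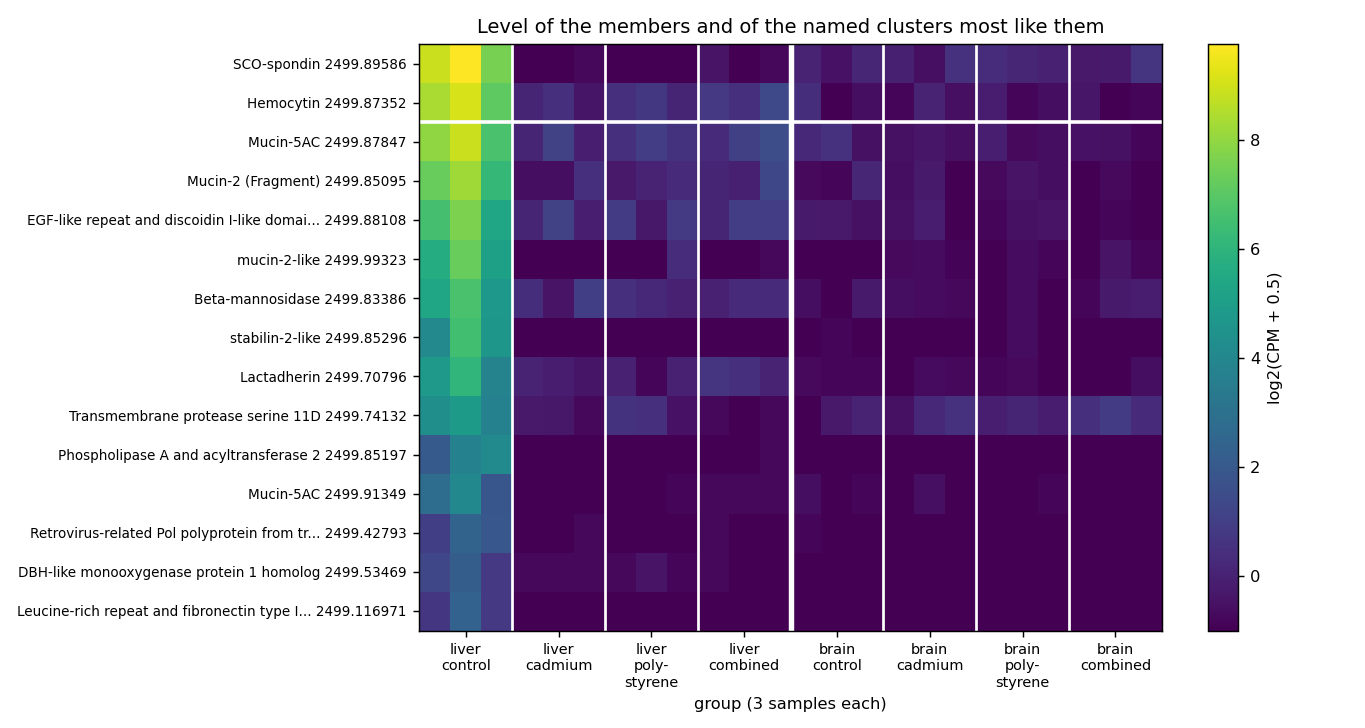
Level, as log2(CPM + 0.5), of the 2 members and the 13 named clusters most like them in the 24 samples (columns, 3 per group; colour is the level). All 15 clusters are bright in the 3 control livers, with means of 2.35 to 511.8 CPM, and dark elsewhere, with no exposed liver of the 13 above 2.39 CPM.

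Few clusters were both well measured in every control liver and lost from every exposed liver. Of 6295 clusters at 20 CPM or more in each control liver, 5 were under 1 CPM in each of the 9 exposed livers. SCO-spondin was among them. The others were Peritrophin-1 (Cluster-2499.84470), a chitin-binding protein of the membrane that lines the gut, the mucin-2-like cluster above and 2 clusters without a name. Peritrophin-1 held 22.1, 640.0 and 370.7 CPM in control livers, an order different from that of the members, and at most 0.357 CPM in exposed ones. Hemocytin fell outside this set because its level in some exposed livers was above 1 CPM, at most 2.13 CPM. With a limit of 5 CPM in exposed livers the count was 11 and Hemocytin was among them. With the limit of 1 CPM kept, 25 of 16734 clusters at 5 CPM or more in each control liver were lost. At 50 CPM or more it was 1 of 2713, SCO-spondin. Both members were chosen on this contrast, so nothing is read from their place in these counts.

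Other clusters that matched the same mucin-5AC-like protein of Pomacea canaliculata as SCO-spondin mostly had few counts in exposed livers too. The table holds 7 clusters with this NR match, under the Swiss-Prot names SCO-spondin, Lactadherin, Mucin-5AC, Kielin/chordin-like protein, Hemocytin and Epidermal growth factor-like protein 8. A Lactadherin cluster (Cluster-2499.96006) stayed well measured there. It held 294, 1378 and 892 counts in control livers, a mean of 76.0 ± 46.4 CPM, and still 4960 counts over the 9 exposed livers, at 2.81 to 171.1 CPM. Of the rest, Lactadherin (Cluster-2499.100150) had 25, 65 and 9 counts in the control livers and 7 over the 9 exposed ones, and Mucin-5AC (Cluster-2499.114597) had 19, 33 and 4 and then 0. Kielin/chordin-like protein (Cluster-51824.1) had 6, 15 and 0 counts and then 1. Epidermal growth factor-like protein 8 (Cluster-2499.114400), with 4, 7 and 3 counts in control livers, had 8 over the exposed ones and 67 over the brains. The NR match of the Hemocytin member was shared by no other cluster.

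The other clusters named SCO-spondin did not share the member's loss as a rule, while the 2 others named Hemocytin fell too, at few counts. The name SCO-spondin was given to 32 clusters, 16 of them higher on average in liver and 16 in brain. Of 21 such clusters with 3 or more counts in control livers, 2 had a mean in exposed livers under 10% of the control mean, the member and a cluster with 5 counts in all. The 3 clusters named Hemocytin were all higher in liver, and all 3 had an exposed mean under 10% of the control mean. Beside the member these are small, since Cluster-2499.114303 held 45 counts over the control livers and 2 over the exposed ones, and Cluster-2499.109346 held 11 and 0. The members fall under the limit of 10% by their choice, and the share of all liver clusters under it was not counted.

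The SCO-spondin clusters of highest mean CPM were found mostly in 1 tissue and stayed present under exposure. Cluster-2499.87625 had 888.9 ± 194.3 CPM in control livers and 1485 ± 281.3 in cadmium livers (SD, n = 3), and rose by 0.75 ± 0.17 on the log2 scale (adjusted p by edgeR = 0.0353). That call was lost when control liver 1 or 2, cadmium liver 2 or 3 or polystyrene liver 2 was left out. Cluster-2499.126094 and Cluster-2499.121419 were brain clusters, at 706.2 ± 270.9 and 508.0 ± 255.7 CPM in control brains and at most 1.05 CPM as a mean in any liver group. Cluster-2499.89842 held 344.2 ± 37.3 CPM in control livers and 260.0 to 356.9 CPM as a mean in exposed groups. Thus 2 of the 5 with the highest mean CPM were brain clusters, where the SCO-spondin member itself stayed at or below 1.08 CPM.

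Cluster-2499.88300 fell in the livers of the combined exposure but was not lost. It held 1006, 998.5 and 662.4 CPM in control livers and 169.6, 47.2 and 156.0 CPM under the combined exposure, where the groups did not overlap. The log2 change was -2.87 ± 0.64 (adjusted p by edgeR = 0.0377), and the call was lost in 10 of the 12 omissions of 1 library, all but those of cadmium liver 2 or 3. Under cadmium alone its livers held 640.7, 144.7 and 694.9 CPM. The cluster that shares the member's name and its pair of Pfam domains, Cluster-2499.91370, had 188.4 ± 120.8 CPM in control livers, 81.8 ± 58.9 with cadmium, 250.2 ± 232.9 with polystyrene and 18.1 ± 9.76 in the combined exposure, and passed no test. The firmest fall by name was in Cluster-2499.81927, from 13.4 ± 1.51 CPM in control livers to 4.38 ± 0.694 with polystyrene and 4.19 ± 1.497 in the combined exposure. Its log2 changes of -1.61 ± 0.28 and -1.69 ± 0.29 (adjusted p by edgeR of 0.00824 and 0.00507) held whichever library was left out. In cadmium livers it held 12.2 ± 4.23 CPM, and the combined exposure was lower than cadmium by 1.56 on the log2 scale (-1.56 ± 0.29, adjusted p by edgeR = 0.0135), a call lost without cadmium liver 2 or combined liver 3.

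**Figure D4:**
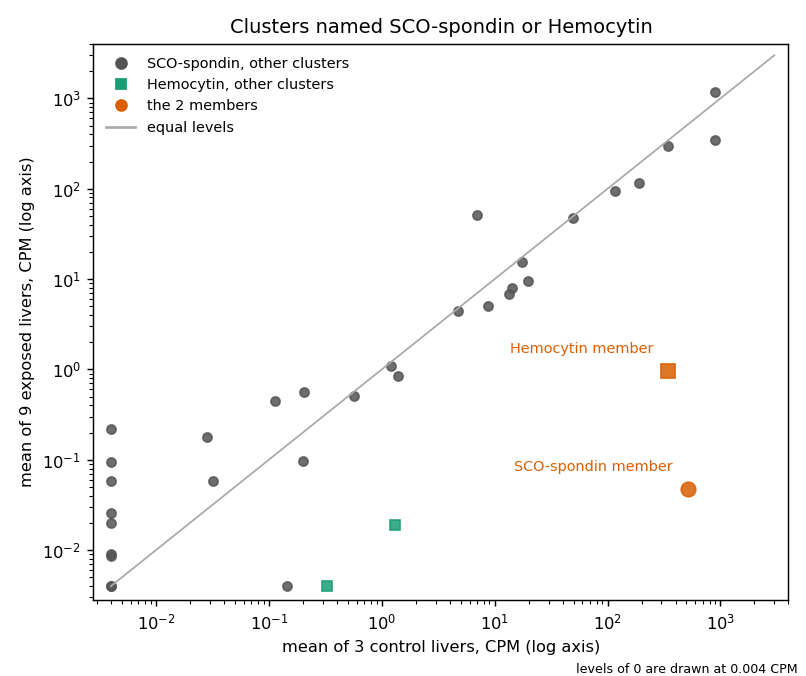
Mean level in the 9 exposed livers against that in the 3 control livers (both in CPM, log axes) for the 35 clusters named SCO-spondin or Hemocytin; the line marks equal levels, and levels of 0 are drawn at the edge. Most SCO-spondin clusters lie near the line, while the 2 members lie far below it, at 0.0470 against 511.8 CPM and 0.961 against 342.0 CPM.

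Beside the members, 15 clusters with a member's name were tested in liver, of which 1 was called higher and 2 lower in at least 1 of the 3 exposures. Over all liver clusters 4.58% were called higher and 4.84% lower in at least 1 exposure. The 1 higher call was lost without control liver 1 or 2, cadmium liver 2 or 3 or polystyrene liver 2. The count of 2 lower was 1 without any 1 of the control livers, cadmium liver 1, combined liver 2 or polystyrene liver 1 or 3, and 4 without combined liver 1. In brain 18 were tested, of which 5 were called higher and 1 lower, against 6.59% and 4.35% of all brain clusters. Without control brain 4 the count of 5 was 2, and without control brain 5 or 6 it was 3. The 1 lower call, of Cluster-2499.87625 with polystyrene, was lost without control brain 6 or polystyrene brain 5 or 6. Cluster-2499.13255 rose in brain with polystyrene, from 0.125 ± 0.113 to 5.90 ± 0.180 CPM, by 5.48 ± 0.88 on the log2 scale (adjusted p by edgeR = 0.00344), and kept the call whichever library was left out. The 3 polystyrene brains of this cluster held 114, 123 and 114 counts against 0, 4 and 3 in control brains. Cluster-2499.10760 rose there too, by 6.50 ± 1.03 (adjusted p by edgeR = 0.00632), with 9.67, 17.1 and 76.6 CPM against at most 0.615 CPM in control brains.

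The wider families were described by lists of names, from which the members were left out. Beside each count stand the shares of all clusters called, which were 4.58% higher and 4.84% lower in liver and 6.59% higher and 4.35% lower in brain. With 1 library left out these shares ranged from 1.21% to 5.47% higher and from 1.4% to 5.04% lower in liver, and from 3.86% to 7.06% higher and from 2.64% to 4.02% lower in brain. They were 2.75% and 3.67% without control liver 1, 1.21% and 1.4% without control liver 2, and 2.04% and 2.5% without control liver 3. They were 3.86% and 3.14% without control brain 4, 4.71% and 3.22% without control brain 5, and 4.02% and 2.78% without control brain 6. By name, 119 clusters related to von Willebrand factor and mucins were tested in liver, of which 18 (15.1%) were called higher and 10 (8.4%) lower in at least 1 exposure, against 4.58% and 4.84% of all clusters. This list still holds the 4 mucin clusters above that were chosen for running like the members. The count of 10 lower is therefore not separate from the pattern of the members, and nothing is read from it. The higher count depended on which control livers were kept. Without control liver 2 the counts were 2 and 6, when 1.21% and 1.4% of all clusters were called. The lower count moved by over 1.5 times in no other omission. Without control liver 1 or 3 the count of 18 was 10 or 7. The strongest call upward was mucin-21-like isoform X3 (Cluster-2499.72499), from 7.43 ± 0.928 to 31.7 ± 8.57 CPM with polystyrene (log2 change 2.09 ± 0.34, adjusted p by edgeR = 0.00756). The strongest downward was Mucin-5AC (Cluster-2499.91349), described above and itself found by its likeness to the members. In brain 14 of 145 (9.66%) were higher and 15 (10.3%) lower, against 6.59% and 4.35% of all clusters. Without control brain 5 the count of 14 was 8, and without control brain 4 or 6 it was 9. The strongest calls there were Mucin-like protein (Cluster-2499.146995), from no count to 10.1 ± 3.67 CPM with cadmium, and Sushi, von Willebrand factor type A, EGF and pentraxin domain-containing protein 1 (Cluster-2499.40072), from 11.4 ± 4.002 to 0.0822 ± 0.0470 CPM with cadmium (adjusted p by edgeR of 0.000495 and 5.96e-05).

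Of clusters named for thrombospondin type 1 repeats, a group to which SCO-spondin belongs, 6 of 85 (7.06%) were higher and 6 lower in liver beside the member, against 4.58% and 4.84% of all clusters. The other SCO-spondin clusters counted above stayed in this list. Their calls, 1 higher and 2 lower in liver and 5 higher and 1 lower in brain, are thus counted again here. Without control liver 2 the counts were 3 and 2, against 1.21% and 1.4% of all clusters, and without control liver 3 the higher count was 3, against 2.04%. In brain 19 of 109 (17.4%) were higher and 15 (13.8%) lower, against 6.59% and 4.35% of all clusters, and the count of 19 was 10 without control brain 4, against 3.86%. The strongest calls were of hemicentins, extracellular proteins of the basement membrane. Hemicentin-1 (Cluster-2499.108007) rose in livers of the combined exposure from 0.906 ± 0.758 to 10.4 ± 5.31 CPM (log2 change 3.48 ± 0.51, adjusted p by edgeR = 0.00245). Hemicentin-2-like isoform X4 (Cluster-2499.106183) rose in cadmium brains from 0.159 ± 0.00612 to 6.48 ± 0.348 CPM, and Hemicentin-1 (Cluster-2499.94989) fell in polystyrene brains from 17.7 ± 8.11 CPM to no count (adjusted p by edgeR of 0.000901 and 0.000207). In liver an ADAMTS-like protease (Cluster-2499.66069) fell with polystyrene from 4.12 ± 1.79 to 0.119 ± 0.206 CPM (adjusted p by edgeR = 0.00414).

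The list for the LDL receptor takes in clusters named LDL receptor-related, sortilin-related or vitellogenin, the last not a receptor. Of its 71 clusters tested in liver 7 (9.86%) were higher and 5 (7.04%) lower, against 4.58% and 4.84% of all clusters. Without control liver 2 these were 3 and 0, against 1.21% and 1.4% of all clusters. Without cadmium liver 1 they were 4 and 2, and without control liver 3 also 4 and 2. The count of 5 lower was 1 without combined liver 2, 2 without combined liver 3, and 3 without combined liver 1 or polystyrene liver 2 or 3. In brain 5 of 54 (9.26%) were higher and none lower by edgeR, against 6.59% and 4.35% of all clusters. The count of 5 was 1 without control brain 5 or polystyrene brain 6, 2 without control brain 4 or 6, and 3 without any 1 of the cadmium brains, combined brain 5 or polystyrene brain 5, while up to 3 were called lower without control brain 5 and 1 without combined brain 4 or 6. Low-density lipoprotein receptor-related protein 2 (Cluster-2499.69041), an endocytic receptor, rose in livers of the combined exposure from 12.3 ± 2.60 to 32.9 ± 6.87 CPM (adjusted p by edgeR = 0.00371). Low-density lipoprotein receptor-related protein 4 (Cluster-2499.90911) fell there from 36.3 ± 6.49 to 21.4 ± 4.11 CPM (adjusted p by edgeR = 0.0158), a call lost without control liver 2 or combined liver 2, and rose in polystyrene brains from 75.9 ± 4.92 to 133.0 ± 12.2 CPM (adjusted p by edgeR = 0.0101).

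The list of clotting and blood cell names also takes in every transglutaminase, peroxidasin, phenoloxidase, tyrosinase and laccase, so its counts are not of clotting genes alone. Of its 41 clusters tested in liver 3 (7.32%) were higher and 3 lower, against 4.58% and 4.84% of all clusters. The higher count was 5 without cadmium liver 3. The lower count was 0 without cadmium liver 1 or control liver 2 or 3, 1 without cadmium liver 2 or combined liver 2, and 5 without polystyrene liver 1. Laccase-14 (Cluster-2499.88965), a copper oxidase, rose in livers of the combined exposure from 254.3 ± 22.7 to 492.1 ± 91.8 CPM (adjusted p by edgeR = 0.00164). Lim and transglutaminase domain protein ltd-1 (Cluster-2499.98901) fell there from 9.39 ± 7.497 to 1.15 ± 0.195 CPM (adjusted p by edgeR = 0.0323), a call lost in 6 of the 12 omissions, those of control liver 2 or 3, cadmium liver 1 or any 1 of the combined livers. In brain 7 of 44 (15.9%) were higher and 3 (6.82%) lower, against 6.59% and 4.35% of all clusters. The count of 7 was 3 without control brain 5 and 4 without any 1 of the polystyrene brains, and the count of 3 was 1 without control brain 6 and 5 without control brain 5. Laccase-10 (Cluster-2499.98813) rose in cadmium brains from 0.670 ± 0.194 to 3.73 ± 1.57 CPM (adjusted p by edgeR = 0.00563), and Coagulation factor XI (Cluster-2499.49304) fell in brains of the combined exposure from 3.70 ± 3.82 to 0.428 ± 0.114 CPM (adjusted p by edgeR = 0.0167), a call lost without control brain 6 or combined brain 5 or 6. The median log2 change of a list in a comparison lay between -0.24 and 0.40 for these 4 lists, while that of all clusters tested lay between -0.01 and 0.00.

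Summed levels of markers of other cell types were set beside the loss of the members. Blood cell markers summed to 1172, 1091 and 1388 CPM in control livers and to 849.1 to 1178 CPM in exposed ones, ranges that overlapped. Mucins, the list closest to the SCO-spondin cluster by its NR match, summed to 1261, 2310 and 1301 CPM in control livers, with control liver 2 highest. In exposed livers they summed to 645.3 to 1779 CPM with a median of 857.9. This sum includes the 4 mucin clusters above that were chosen for running like the members. Mucin-5AC (Cluster-2499.87847) alone held 249.9, 474.3 and 103.1 CPM of it in control livers, and Mucin-2 (Cluster-2499.85095) held 155.2, 304.7 and 70.8 CPM. The mucin sum is therefore not separate from the pattern of the members. Cilia markers stood at 672.2, 1604 and 1039 CPM in control livers and at 412.6 to 1094 in exposed ones, median 494.6. Muscle markers were lower in every control liver (785.2 to 893.3 CPM) than in any exposed liver (1002 to 1331 CPM). Egg and albumen gland markers were at 2186, 2495 and 1884 CPM against 1371 to 2087. Digestive enzymes overlapped, at 50650 to 60020 CPM in control and 49370 to 69330 CPM in exposed livers. None of these sums fell by a factor near that of the members. The part that a different mix of cells in the sampled tissue has in the loss of the members was not tested.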

How the data were processed

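RNA was taken with an RNeasy mini plus kit and made into libraries with a SMARTER mRNA-Seq kit, per the labels' protocols. The deposited table gives expected counts, estimated reads per gene cluster that are not scaled between samples, with 3.54% to 7.14% of values per sample not whole. For each member 23 of its 24 values were whole. How the transcriptome was assembled, reads were aligned and counts were made is not given in the sources used here. The submitters' processing notes name the build mm10, which is of the mouse and was not used. The deposited NR and Swiss-Prot scores are alignment scores of the best database matches, and each name is the Swiss-Prot description, else that of NR or KO.

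Values were rounded to whole counts. edgeR 4.0.16 (R 4.3.3) was run with filterByExpr at its default of 10 counts, TMM scaling, 1 mean per group and the robust quasi-likelihood test on the 12 samples of a tissue (55762 clusters in liver, 64047 in brain), with Benjamini-Hochberg adjustment and calls at an adjusted p under 0.05. Levels are CPM scaled by TMM over all 24 samples. Standard errors come from the F statistic. Approximate 95% intervals are normal. Alternatives were the size factors and the Wald test of DESeq2 1.42.0, no filter, a stricter filter (1 CPM or more in 3 samples), the replicate number as a block, only the 6 samples compared and omission of each sample.

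The members, the comparisons and the lists by name were chosen with earlier results of these data known. Named clusters are the 2 members, the 8 and 4 of highest r, every named lost cluster, the 5 most abundant of a member's name, and called list members, of which the text names the call with the smallest adjusted p each way per list and tissue and the called ones with a member's name that hold in every omission or are among the 5. Cluster-2499.91370 and the account of clusters with the same NR match were chosen after their values were seen. Lists were counted without the members, and the members were not tested in liver, where their levels were the basis of the choice. The fit was also run on simulated counts, with changes put into the cadmium group or into none. These counts were drawn with the spread fitted to the same samples, and no result here rests on them. Same-numbered samples of a tissue did not deviate together (r of -0.0886 to 0.108 in liver, -0.146 to 0.161 in brain), so replicate numbers were not taken to pair samples.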

Additional observations from a re-analysis of the deposited data

Results flagged for a closer look

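Of the clusters named from the lists, all already called in at least 1 comparison, 3 had opposite directions in the tissues. In these, every exposed sample of a group lay above its controls in 1 tissue and below them in the other. The share of all clusters with this pattern was not counted, so nothing is read from the count of 3. The difference between the tissues was itself not tested. Hemicentin-1 (Cluster-2499.108007) under the combined exposure had a log2 change of 3.48 in liver and -1.41 in brain. A SCO-spondin cluster (Cluster-2499.54444) with cadmium had a log2 change of 3.02 in brain and -0.72 in liver. Its brain call was lost without control brain 4 or cadmium brain 4. Low-density lipoprotein receptor-related protein 4 (Cluster-2499.90911) under the combined exposure had a log2 change of 0.39 in brain and -0.78 in liver. Neither member showed such a pattern.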

How the results depend on the processing

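The 5 tested differences of SCO-spondin in brain stayed short of the threshold under every alternative that gave an adjusted p, 16 or 17 per comparison. Not every alternative run gave one. The adjusted p lay between 0.584 and 1. The direction of 4 of the 5 differences changed with the omission of 1 sample. Its log2 difference ranged from -0.50 to 0.64 for cadmium, from -0.41 to 0.62 for the combined exposure, from -0.66 to 0.84 for the combined exposure against cadmium and from -0.91 to 0.12 against polystyrene. Levels moved by less than 1 SD under other scalings and omissions except SCO-spondin in polystyrene brains, at 0.837 CPM by plain totals. Counts of called clusters moved most. Without a filter they were 5440, 4787 and 7216 for cadmium, polystyrene and the combined exposure in liver, 4879 and 3901 for the combined exposure against cadmium and polystyrene, and in brain 5973, 7617, 5997, 4493 and 5327 in the same order. With the DESeq2 Wald test they were 3566, 3178, 5604, 3300 and 2273 in liver and 4977, 7088, 4815, 3462 and 4417 in brain. With only the 6 samples compared they were 2267 (combined against control) and 622 (combined against cadmium) in liver, and 2790 (polystyrene) and 1340 (combined) in brain. With 1 library left out the liver counts ranged over 568 to 2967, 570 to 2708, 1058 to 3961, 442 to 2007 and 220 to 1141, and the brain counts over 1281 to 3505, 2132 to 5255, 1502 to 2722, 780 to 2819 and 887 to 3879. The lowest of the 3 liver exposures were all without control liver 2. The replicate block, for samples that share only a number, moved no count by over 1.5 times (liver cadmium 1497, brain polystyrene 3729). Of the members only SCO-spondin in brain was looked at under this block, and it was not called there. Of the 8 clusters most like SCO-spondin 0 remained by Spearman's rho, 4 with a pseudocount of 2 CPM and 4 in livers only, and of Hemocytin's 8 these were 0, 6 and 5. The count of 5 lost clusters was 25 with 5 CPM demanded in control livers, 1 with 50 CPM, 0 with no count allowed in exposed livers and 11 with under 5 CPM allowed. The cause of these moves was not tested, beyond that other alternatives test other numbers of clusters or samples. Depth limits the exposed livers and the brains, where 1 sample holds at most 25 counts of a member.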

Other observations

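Some other clusters of the name SCO-spondin stood higher in exposed brains, and they were singled out after their values were seen. Cluster-2499.10760 held 0.0526 to 0.615 CPM in the 3 control brains and 1.499 to 6.34 CPM with cadmium. It held 9.67 to 76.6 CPM with polystyrene and 5.30 to 6.31 CPM in the combined exposure. Every exposed brain lay above every control brain, but only the polystyrene difference was called. The share of all brain clusters with such a separation was not counted. With polystyrene, Cluster-2499.10761 rose from 0.178 ± 0.0377 to 25.1 ± 31.4 CPM and Cluster-2499.147877 from 0.0526 ± 0.0911 to 13.8 ± 16.8 CPM (SD, n = 3; adjusted p by edgeR of 0.0103 and 0.0215), and both calls were lost when any 1 control brain was left out. Cluster-2499.54444 rose in cadmium brains from 1.13 ± 0.846 to 9.28 ± 4.96 CPM (adjusted p by edgeR = 0.0127), a call lost without control brain 4 or cadmium brain 4, and in the combined exposure its brains held 1.02 to 1.40 CPM. The SCO-spondin member itself lay between 0.178 and 1.08 CPM in the 12 brains.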
